A study of Homo sapiens with 3 samples.

Results

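AGS is an established human gastric adenocarcinoma cell line. The gene levels described here come from 1 RNA sequencing library of AGS cells cultured in RPMI-1640 with serum and given only the vehicle, DMSO, for 48 h. They were chosen by level alone: of 50495 gene names in the deposited table, the 10631 at 1 FPKM or more in this library were kept. FPKM is a count of fragments divided by the gene's length in kilobases and scaled to the total of the library, and where several identifiers shared a name the highest was taken. The other libraries of the study came from cells given 12 µM SFA or 18 µM SFE. They enter below only in a check of cell identity and in the counts of MT-CO1. Each group has 1 library, so no spread between cultures is known, no test was made, and every interval is a 95% interval of counting error.

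Cells of the gastric lining normally hold together through E-cadherin and claudins, and secrete trefoil factors, gastric mucins and pepsinogens under the control of foregut transcription factors. AGS cells are known to carry an activating mutation of CTNNB1, which encodes β-catenin, and to lack E-cadherin protein. RAS proteins pass signals from growth factor receptors to the ERK kinases, while stabilised β-catenin acts with TCF factors on Wnt target genes such as AXIN2 and LGR5.

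The library held 18767232 counts, and the members had a median of 630 counts. Of 19656 protein-coding names, 8991 (45.7%) reached 1 FPKM, against 21.1% of all names. This 45.7% is the level against which the counts of each gene list below are read, and the median protein-coding gene stood at 0.673 FPKM. At 10 FPKM or more there were 3015 names (5.97%), of which 2762 were protein-coding (14.1% of such names). At 100 FPKM or more there were 257 names (0.509%), with 214 protein-coding (1.09%). A further 4471 protein-coding names (22.7%) had 0 counts. For a gene with 0 counts, the level that 3 counts would give is quoted as the limit of detection. Around the limit of 1 FPKM, CBLB, TK2 and CDRT4 lay just inside at 1.00088, 1.00091 and 1.00095 FPKM, and ETS1, DBT and ZNF343 lay just outside at 0.998922, 0.997452 and 0.996852 FPKM. Of all members, 6954 (65.4%) overlapped another listed gene, and 698 shared over 50% of their exon bases with one. Values of such genes are uncertain, because it is not known whether strand was used in counting.

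The length behind the deposited FPKM affects how genes compare with each other. For 88.2% of the 10574 identifiers at the limit that have annotated exons, the length used matched, within 1%, the sum of all distinct exons in GENCODE 29, with overlapping exons of different isoforms added repeatedly. It was a median of 1.47 times the merged exon length, in which each base counts once, with a 95th percentile of 2.63. Genes with many isoforms therefore have a lower FPKM than their counts per merged exon base would give. GAPDH, a glycolytic enzyme often used as a reference, stood at 1025 FPKM as deposited and at 2377 per merged exon length. ACTG1, a cytoplasmic actin, moved from 462 to 2182, while ENO1, another glycolytic enzyme, stayed near its value with 1105 and 1059. Below, a level is the deposited FPKM unless the merged exon length is named. On that second scale 9874 protein-coding names (50.2%) reached 1. The highest gene of a list differed between the scales in 14 of 58 lists. Per merged exon length CTNNA1 led the cell junction list in place of JUP, CLDN4 the claudins in place of CLDN12, A2M the protease inhibitors in place of SLPI and IGF1R the receptor tyrosine kinases in place of EPHA2. Likewise DVL1 replaced FZD2 in the Wnt cascade, TEAD4 replaced CYR61 in the Hippo list and GAPDH replaced ENO1 in glycolysis. OGDH replaced SDHB in the citric acid cycle, FTH1 replaced FTL among redox genes, CD151 replaced CD63 among tetraspanins, HOXC10 replaced HOXC13, UHRF1 replaced CHD4 among chromatin regulators and RPS2 replaced RPS10.

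**Figure D1:**
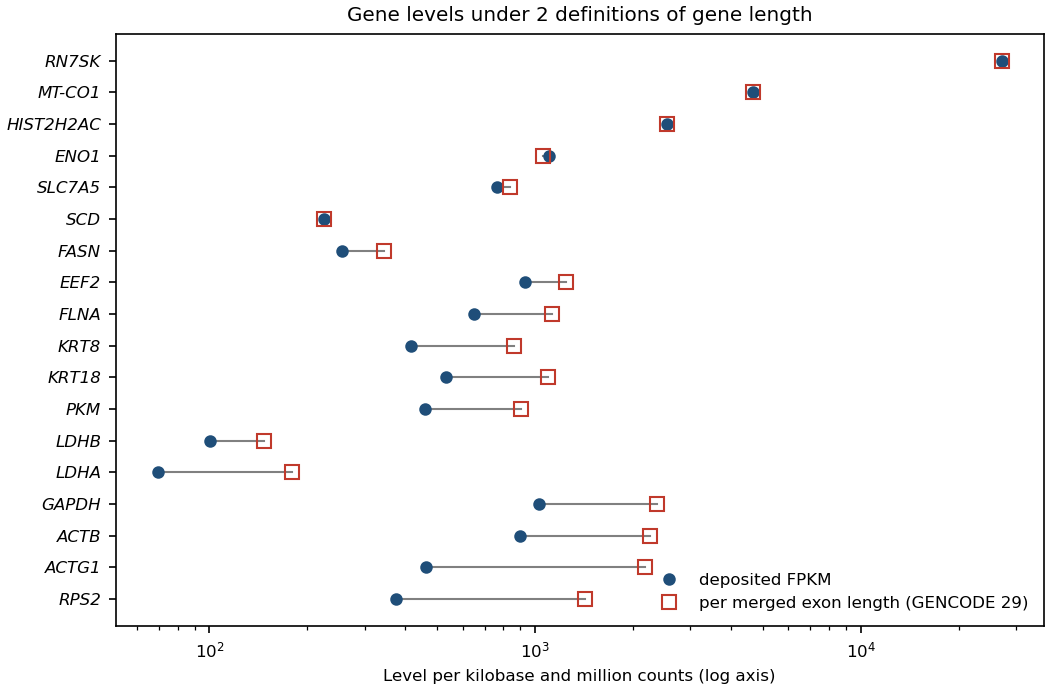
Level of 18 named genes in the DMSO library on a log axis, as deposited FPKM (filled circles) and per merged exon length (open squares). Single-exon genes such as RN7SK and HIST2H2AC have the same value on both scales, and ACTG1 and RPS2 move furthest to the right.

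The markers given for these cells were found unevenly. KRT18 (chromosome 12, 52948871 to 52952901), the type I keratin of simple epithelia, stood at 534 FPKM (529.8 to 538), and its type II partner KRT8 (chromosome 12, 52897187 to 52949954) at 416 FPKM (414 to 419). Both lie within the 214 protein-coding names above 100 FPKM. A2M (chromosome 12, 9067664 to 9116229), which encodes the protease inhibitor alpha-2-macroglobulin, was at 127 FPKM, and ALPP (chromosome 2, 232378534 to 232382889), the placental alkaline phosphatase, at 54.8 FPKM. MUC1 (chromosome 1, 155185824 to 155192916), a membrane-bound mucin, was lower at 5.43 FPKM. GATA6 (chromosome 18, 22169443 to 22202528), a transcription factor of endoderm and stomach, had 47 counts and 0.469 FPKM (0.344 to 0.623), which is below the limit, so 5 of the 6 markers are members. The markers were chosen with earlier results of these data known, so this count is no evidence of cell identity.

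Genes that define gastric epithelium were near or at 0. None of the 30 gastric epithelial products reached 1 FPKM, and the highest, the surface antigen PSCA, stood at 0.542 FPKM. TFF1 and TFF2, the gastric trefoil factors, MUC5AC, the surface mucin, PGC, which encodes pepsinogen C, and GKN1, a gastrokine, all had 0 counts. For TFF1, 3 counts would equal 0.290 FPKM, and for MUC5AC 0.00916 FPKM. The same list also gave 0 of 30 in each library of treated cells, where its highest gene was ANXA10, so these low levels were seen in all 3 libraries. Among the foregut and gut lineage factors, 5 of 43 were members (11.6% against 45.7% of protein-coding names), with a list median of 0.0385 FPKM. These were KLF5 (6.73 FPKM), a factor of proliferating gut epithelium, ELF3 (4.38), an epithelial ETS factor, SOX9 (3.49), a progenitor factor, CDX2 (3.06), the intestinal homeobox factor, and KLF4 (1.23). SOX2, which marks foregut, was at 0.191 FPKM and the pioneer factor FOXA1 at 0.914 (1.46 per merged exon length). GATA4 had 0 counts.

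Other epithelial traits were mixed. Only 9 of 66 keratin names were members, but 4 of them exceeded 100 FPKM. After KRT18 and KRT8 came the hair keratin KRT81 at 273 FPKM, the simple epithelial keratin KRT7 at 118, KRT17, which basal and stressed epithelia make, at 76.9, and KRT80 at 44.3. KRT19, usually abundant in gastric adenocarcinoma, had 13 counts (0.162 FPKM), and KRT20 had 0. CDH1, which encodes E-cadherin, had 40 counts and stood at 0.147 FPKM (0.105 to 0.201). EPCAM, the epithelial adhesion molecule, was at 0.336 FPKM. ESRP1, an epithelial splicing factor, and the desmosomal cadherin DSC2 had 0 counts.

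Some cytoplasmic parts of junctions were members, while the epithelial cadherin was below the limit. Among the cell junction genes, 16 of 29 were members (55.2%, against 45.7% of protein-coding names). The list was led by JUP, which encodes plakoglobin, at 43.8 FPKM, α-catenin CTNNA1 at 32.8, plakophilin PKP3 at 24.7, desmoplakin DSP at 22.4 and CTNNB1 at 20.7. CDH2, which encodes N-cadherin, stood at 11.7 FPKM, 79.7 times CDH1 as deposited and 43.99 times per merged exon length. Claudins, the sealing proteins of tight junctions, had 3 of 24 members, and the highest was CLDN12 at 1.62 FPKM. Occludin, OCLN, had 2 counts.

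**Figure D2:**
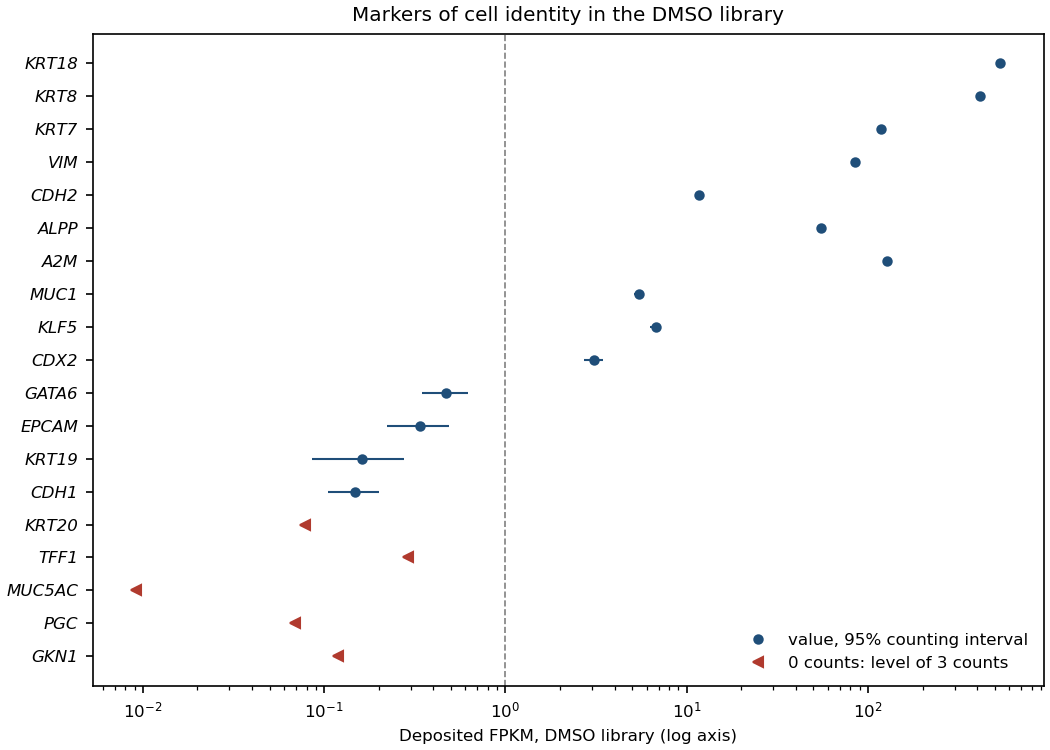
Deposited FPKM of 19 identity markers in the DMSO library on a log axis, with 95% counting intervals; triangles mark genes with 0 counts at the level of 3 counts, and the dashed line is 1 FPKM. KRT18, KRT8, KRT7 and A2M lie above 100, while GATA6, EPCAM, KRT19 and CDH1 lie below 1 and the gastric products at the bottom have 0 counts.

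Mesenchymal markers were the more frequent, with 15 of 20 as members (75%) and a median of 5.94 FPKM. The intermediate filament gene VIM stood at 84.4 FPKM, although 24.4% of its exon bases lie in another listed gene. TGFBI, an adhesion protein induced by TGF-β, was at 76.99 FPKM, the calcium-binding S100A4 at 74.01 and the matrix protein SPARC at 71.5. Of the transcription factors that repress E-cadherin, SNAI1 was at 17.2 FPKM and TWIST2 at 12.8, while SNAI2, ZEB1 and ZEB2 stayed below the limit at 0.709, 0.346 and 0.155. FN1, which encodes fibronectin, was at 3.82 FPKM.

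Markers of other cell types were mostly near 0. No gene of the leukocyte (0 of 14), endothelial (0 of 8), erythroid (0 of 8) or hepatocyte (0 of 12) lists was a member, and their highest values were 0.815 FPKM for CSF1R (1.06 per merged exon length), 0.507 for CDH5, 0.310 for HBA1 and 0.180 for ALB. PTPRC, the pan-leukocyte antigen, had 2 counts. Fibroblast markers had 4 of 12: COL1A1 at 11.3 FPKM, COL3A1 at 8.47, the receptor PDGFRB at 6.39 and THY1 at 4.29. Other genes of that list were low: DCN, PDGFRA and COL1A2 were at 0.159 FPKM, 0 counts and 1 count. Intestinal products had 3 of 26 (ALPI, EPHB2 and ANPEP), the neural list 3 of 12 (TUBB3, with 35.8% of its exon bases shared, SNAP25 and ENO2) and the muscle list 2 of 10 (DES at 3.65 FPKM and ACTC1 at 2.99). Products of the gastric lining, near or at 0, go against a gastric epithelial profile, although some keratins of simple epithelia were abundant. KRT19 and EPCAM were below the limit as well. Of the Wnt targets described below, AXIN2, LGR5, NKD1 and SP5 were below it, while RNF43 and ZNRF3 were above it. CDH1 was also low, and AGS cells are known to lack E-cadherin protein. Whether these cells carry the CTNNB1 mutation of AGS was not tested. AGS is used below as the label's name of the culture, and its identity was not tested further.

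**Figure D3:**
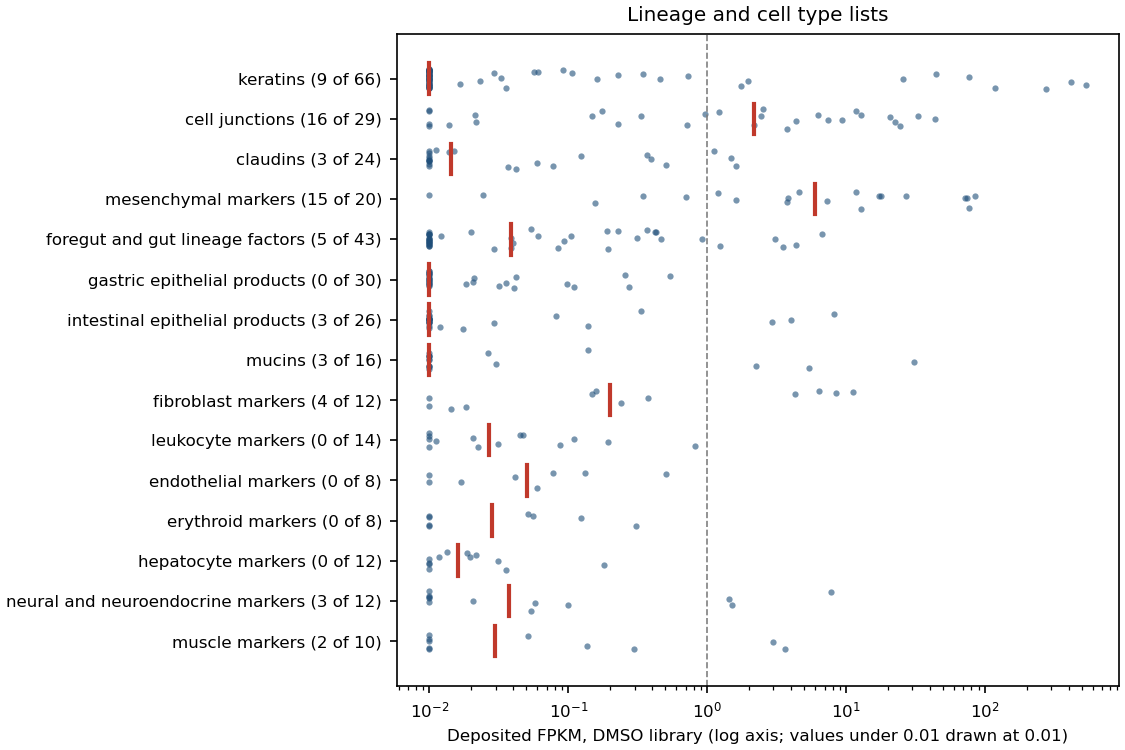
Deposited FPKM of every measured gene in 15 lineage and cell type lists (blue points, log axis, values under 0.01 drawn at 0.01), with the list median as a red bar and the number at 1 FPKM or more in the row name. Mesenchymal markers and cell junction genes have medians above the dashed line at 1 FPKM, and no point of the gastric list reaches it.

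The most abundant RNAs were short and non-coding. RN7SK, which holds the transcription elongation factor P-TEFb inactive, stood at 27116 FPKM with 168443 counts. RPPH1, the RNA of ribonuclease P that trims transfer RNA precursors, was at 16535 FPKM, and RMRP, the RNA of the related ribonuclease MRP, at 7944. RN7SL1 and RN7SL2 (listed as Metazoa_SRP), the RNAs of the signal recognition particle that directs secretory proteins to the endoplasmic reticulum, were at 14996 and 14773 FPKM. Together these 5 RNAs took 2.55% of all counts (2.54 to 2.56%). The library was depleted of ribosomal RNA from total RNA, so RNAs without a poly(A) tail could be sequenced. A pseudogene of the signal recognition particle RNA, RN7SL4P, stood at 3069 FPKM. RPPH1, RMRP and RN7SL1 share 100% of their exon bases with a second listed gene, so how reads were divided between them limits these 3 values.

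Among protein-coding genes, MT-CO1, which encodes subunit 1 of cytochrome c oxidase, was highest on both scales at 4658 FPKM. Its value is uncertain, as given below for the mitochondrial genes. Histone genes filled many of the next places: HIST2H2AC at 2543 FPKM, HIST1H3B at 2314, HIST1H2AM at 2188 and HIST1H2BO at 1230.4. Replication-dependent histone genes are transcribed in S phase, and their messages end in a stem-loop instead of a poly(A) tail. Of 88 names beginning with HIST, a group chosen after their values were seen, 67 were members and 39 exceeded 100 FPKM, and they took 1.56% of all counts. Several copies encode near-identical messages, and 88.04% of the exon bases of HIST1H2AM lie in another listed gene, so single values such as 1715 for HIST2H2AA3 and 1422 for HIST2H2AA4 are uncertain. Next came ENO1, GAPDH, the elongation factor EEF2 at 933 FPKM, β-actin ACTB at 899.5, the amino acid transporter SLC7A5 at 765 and β-tubulin TUBB at 734. By counts alone FLNA, which encodes the actin crosslinker filamin A, was highest with 224032 counts (1.19% of the library) and 648 FPKM. The 100 genes with most counts held 22.4% of them, and the 1000 with most held 55.6%.

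Cytosolic ribosomal proteins took 4.92% of the counts. Of the list, 84 of 87 were members, with a median of 62.1 FPKM. RPS10 led at 683 FPKM, though 39.4% of its exon bases lie in another listed gene. RPS2 followed at 373 FPKM as deposited and 1429 per merged exon length, where it led the list. The exceptions below the limit were the tissue-restricted or duplicated genes RPL10L, RPS10L and RPL3L, with at most 0.263 FPKM.

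All 13 protein-coding genes of the mitochondrial genome, which encode subunits of complexes I, III, IV and V, were members, but their levels were very uneven. MT-ATP6, an ATP synthase subunit, stood at 1632 FPKM, MT-ND1 of complex I at 1336 and MT-CYB of complex III at 845. In contrast, MT-CO2 was at 63.1 FPKM, MT-ND4 at 5.53, MT-CO3 at 3.67 with 54 counts, and MT-ATP8 at 1.29 with 5 counts. MT-CO1, MT-CO2 and MT-CO3 encode parts of 1 enzyme, and their values spanned 4658 to 3.67 FPKM. Near-identical nuclear copies were also counted, with MTND2P28 at 251 FPKM, MTATP6P1 at 197 and MTCO1P12 at 21.9. How reads matching both were treated was not given, so the mitochondrial values are uncertain. MT-CO1 had 134786 counts in the DMSO library and 97155 in the library of SFA-treated cells. In the library of SFE-treated cells it was listed at 0 counts, and whether its reads were lost in counting there was not tested.

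**Figure D4:**
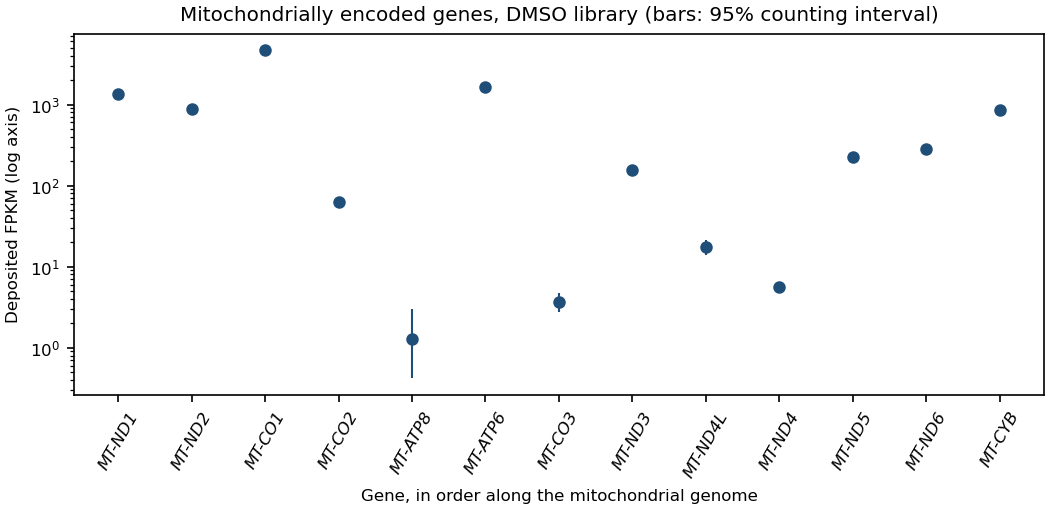
Deposited FPKM of the 13 mitochondrially encoded genes of the DMSO library on a log axis, in order along the mitochondrial genome, with 95% counting intervals. MT-CO1 is highest at 4658, and MT-CO3, MT-ND4 and MT-ATP8 lie below 10.

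Alkaline phosphatases are surface enzymes with tissue-restricted members. ALPP stood at 54.8 FPKM (20.6% of its exon bases shared), 6.64 times the intestinal ALPI (8.26 FPKM) and 13.99 times the germ cell form ALPPL2 (3.92). The tissue-nonspecific ALPL was below the limit at 0.227 FPKM. ALPP, ALPI and ALPPL2 lie beside each other on chromosome 2 and are similar in sequence, so part of each value may come from reads of the others, which was not tested. The mucin list had 3 of 16 members. The highest was MCAM at 30.7 FPKM. MCAM is an adhesion molecule, listed for its older name MUC18, and is not a mucin itself. The mucins among the members were MUC1 at 5.43 FPKM and MUC16, the CA125 antigen, at 2.24.

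Protease inhibitors had 19 of 33 members, and 2 exceeded 100 FPKM. SLPI, a secreted inhibitor of leukocyte elastase, stood at 139 FPKM, just above A2M at 127. The related PZP and A2ML1 were below the limit at 0.569 and 0.00609 FPKM. Inhibitors of metalloproteinases followed with TIMP2 at 55.1 FPKM and TIMP1 at 38.4. SERPINA1, which encodes alpha-1-antitrypsin, had 2 counts. Among extracellular proteases, 14 of 29 were members. Lysosomal cathepsin D, CTSD, was highest at 109.9 FPKM with 52.7% of its exon bases shared, then MMP15 at 38.5, HTRA1 at 25.4, the urokinase gene PLAU at 25.2 (31.1% of exon bases shared) and gelatinase MMP2 at 16.3. MMP1, MMP3, MMP7 and MMP9 were at 0.298, 0.0963, 0.146 and 0.0228 FPKM.

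Laminins and collagens had 24 of 56 members (42.9%), near the share of all protein-coding names, with 12 at 10 FPKM or more. LAMA5, a laminin α chain of many basement membranes, stood at 51.03 FPKM, fibrillar COL5A1 at 44.5, anchoring fibril COL7A1 at 36.6 and LAMB3 of laminin 332 at 30.2. LAMA3, a partner chain in laminin 332, was at 2.02. Integrins, the receptors of these proteins, had 9 of 27 members. The fibronectin receptor chains ITGA5 and ITGB1 were at 27.2 and 17.4 FPKM, ITGB5 at 15.5, and the laminin receptor chains ITGA3, ITGB4 and ITGA6 at 14.5, 11.1 and 6.54. The leukocyte chains ITGAL and ITGAM were at 0 and 3 counts.

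Surface proteins used as tumour antigens had 29 of 44 members (65.9%), with a median of 4.66 FPKM. BSG, the CD147 chaperone of lactate transporters, was highest at 133 FPKM. CD70, a ligand of the lymphocyte receptor CD27, stood at 72.6 FPKM, LY6E at 62.9, the complement regulator CD59 at 36.2, the checkpoint ligand CD276 at 35.9, L1CAM at 27.9 and mesothelin, MSLN, at 18.96. CLDN18, whose stomach isoform is an antigen in gastric cancer, had 1 count, and the carcinoembryonic antigens CEACAM5 and CEACAM6 had 0. Tetraspanins had 13 of 31, led by the exosome-associated CD63 at 40.01 FPKM, CD81 at 31.3, CD151 at 29.4 and CD9 at 20.9. TSPAN8, common in gut epithelium, had 7 counts. Of 19 S100 proteins, 9 were members, led by S100A6 at 104 FPKM and S100A11 at 101.

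Receptor tyrosine kinases had 23 of 58 members (39.7%, median 0.0935 FPKM). The ephrin receptor EPHA2 led at 45.5 FPKM, then the insulin-like growth factor receptor IGF1R at 31.7 and EPHB4 at 27.4. MET, the hepatocyte growth factor receptor, was at 9.84 FPKM, and ERBB2 and EGFR were close at 7.81 and 7.31. ERBB3 was at 0.0737 FPKM with 27 counts. FGFR2, which is amplified in part of gastric cancers, was at 1.70 FPKM. Growth factors had 16 of 52 members. The matricellular CYR61 stood highest at 30.96 FPKM, then the ephrin EFNA1 at 15.4, VEGFB at 13.9 and CTGF at 9.32. Of the EGF receptor ligands, HBEGF was at 1.99 FPKM, and TGFA, AREG and EGF were at 0.237, 0.121 and 0.0191.

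The RAS to ERK cascade was nearly complete, with 26 of 28 as members and a median of 4.29 FPKM. The adaptor SHC1 was highest at 55.4 FPKM, followed by the kinase MAP2K2 at 46.9 and the phosphatase PTPN11 at 28.4. Among the RAS genes, NRAS stood at 23.3 FPKM and HRAS at 16.3. The ERK gene MAPK3 was at 4.02 FPKM. Outputs and feedback genes of ERK had 12 of 22, of which IER3 stood highest at 164 FPKM (26.5% of exon bases shared), then EPHA2 and the cyclin CCND1 at 35.2. Of the feedback inhibitors, the phosphatase DUSP6 had 3 counts (0.0196 FPKM) and SPRY4 was at 0.0830, while DUSP4 and DUSP5 were members at 1.98 and 1.59. The factor ETV1 had 0 counts, while ETV5 and ETV4 were at 2.82 and 1.46 FPKM.

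In the PI3K, AKT and mTOR pathway, 27 of 34 genes were members. EIF4EBP1, the translation repressor that mTOR phosphorylates, stood at 142 FPKM, far above the next genes, the GTPase RHEB at 23.6 and MTOR at 22.3. The catalytic subunits PIK3CA, PIK3CB and PIK3CD were at 1.16, 2.02 and 4.39 FPKM, and PIK3CG had 0 counts. AKT1 and AKT2 were at 6.20 and 5.37 FPKM. Exon bases of PIK3CA were shared to 35.8%.

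Wnt pathway genes differed by role. Of the receptors and cascade genes, 24 of 36 were members. The receptor FZD2 stood at 37.8 FPKM, the co-receptor LRP5 at 22.9, the adaptor DVL1 at 20.8 and CTNNB1 at 20.7. The destruction complex gene AXIN1 was at 9.99 FPKM and APC at 0.461 (1.23 per merged exon length). Of the DNA-binding partners of β-catenin, TCF7L2 was at 0.587 FPKM, TCF7L1 at 0.182, TCF7 at 0.149, and LEF1 had 1 count, so none of the 4 reached the limit as deposited. Per merged exon length TCF7L2 stood at 1.11, above it. Ligands had 6 of 19 members, led by WNT6 at 16.2 FPKM, WNT7B at 7.57 and WNT5A at 7.23. Target genes had 10 of 26 (38.5%, median 0.385 FPKM). CCND1 and CD44, which many pathways control, were at 35.2 and 5.59 FPKM. Among more specific targets, AXIN2, LGR5, NKD1 and SP5 were at 0.109 (23 counts), 0.0293 (6), 0.0578 (10) and 0.0698 FPKM (3). RNF43 and ZNRF3, ligases that remove Frizzled receptors and are also Wnt targets, were above the limit at 1.86 and 1.46 FPKM.

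TGF-β and BMP genes had 21 of 34 members. The BMP-responsive inhibitors of differentiation ID3 and ID1 stood at 163 and 103 FPKM, while ID2 was at 2.63 and ID4 had 0 counts. The ligand TGFB1 was at 35.7 FPKM, the receptors TGFBR2 and TGFBR1 at 12.4 and 0.949 (2.51 for TGFBR1 per merged exon length), and the shared mediator SMAD4 at 1.97. The Notch and Hedgehog list had 7 of 26. NOTCH2 and NOTCH1 were at 25.4 and 17.9 FPKM, NOTCH3 had 2 counts, and the Notch target HES1 was at 0.474. SMO, which carries the Hedgehog signal, was listed at 0 counts, and whether its reads were lost in counting was not tested. The target GLI1 was at 0.129. The Hippo pathway had 19 of 24 members: the coactivators YAP1 and WWTR1 at 5.45 and 2.78 FPKM, the DNA-binding TEAD4 at 24.4, and the targets CYR61 and CTGF at 30.96 and 9.32.

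**Figure D5:**
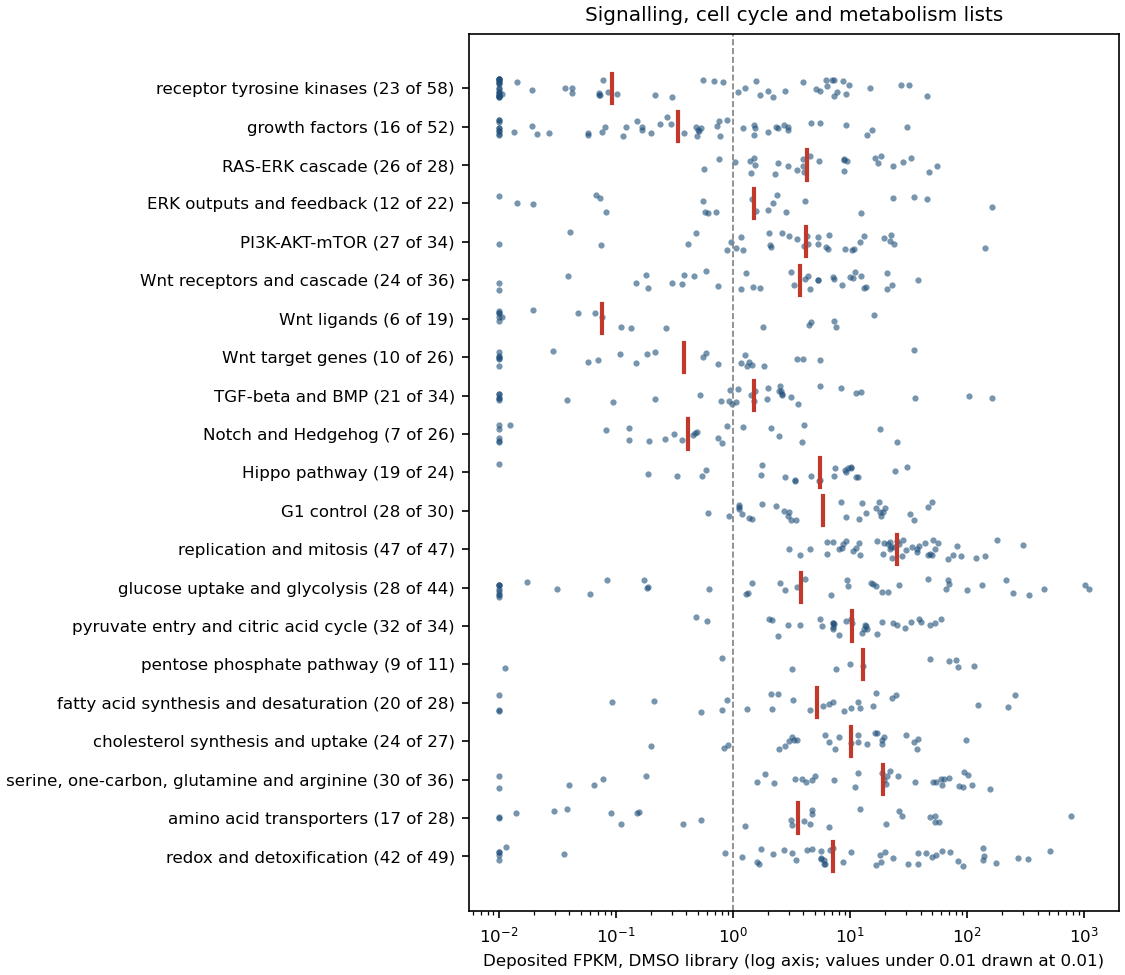
Deposited FPKM of every measured gene in 21 signalling, cell cycle and metabolism lists (blue points, log axis, values under 0.01 drawn at 0.01), with the list median as a red bar and the number at 1 FPKM or more in the row name. All 47 replication and mitosis genes lie right of the dashed line at 1 FPKM. The medians of receptor tyrosine kinases, growth factors, Wnt ligands, Wnt target genes and the Notch and Hedgehog list lie left of it.

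Nuclear receptors had 21 of 48 members, close to the background share. NR2F6 led at 46.2 FPKM, followed by ESRRA, a regulator of mitochondrial genes, at 14.9 and the retinoic acid receptor RARG at 14.4. The glucocorticoid receptor NR3C1 was at 6.18 FPKM, PPARG at 3.52 and VDR at 5.22, while PGR had 0 counts. HNF4A, a factor of gut and liver epithelium, was at 0.0607 FPKM. HOX genes had 12 of 39 (30.8%), none above 4.99 FPKM (HOXC13) as deposited, and 7 of the 12 lie in the HOXC cluster. Only 6 of the 39 overlap no other listed gene, and 1 of these 6 is a member, so the HOX values are uncertain.

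Oncofetal and cancer-testis genes had 8 of 35 members. The chromatin protein HMGA1 stood at 104 FPKM, the testis antigen MAGEB2 at 45.01, the stem cell factor SALL4 at 16.97 and the RNA-binding IGF2BP1 at 13.7. AFP and GPC3 had 0 counts, and IGF2 had 5 counts. TERT, the telomerase protein, was below the limit at 0.547 FPKM (68 counts). The telomerase RNA TERC was listed at 275, with 80.96% of its exon bases shared. MYC, which drives growth and ribosome production, was at 70.4 FPKM as deposited and 210.3 per merged exon length.

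Proliferation genes were present throughout. All 47 replication and mitosis genes were members, against 45.7% of protein-coding names, with a median of 25.4 FPKM. MYBL2, a cell cycle transcription factor, stood at 181 FPKM, the anaphase activator CDC20 at 141, the spindle protein TPX2 at 118, the helicase subunit MCM2 at 88.3 and cyclin CCNB1 at 81.7. In G1 control, 28 of 30 were members. CDKN2A, whose products include the CDK4 inhibitor p16, was highest at 50.3 FPKM. Counts per gene do not tell its transcripts apart, so the share that encodes p16 is not known. Beside it were E2F1 at 46.7, CCND1 at 35.2 and CDK4 at 32.6 (43.2% of exon bases shared). RB1, on which p16 acts through CDK4 and CDK6, stood at 2.31 FPKM, and the ratio of CDKN2A to RB1 was 21.7 as deposited and 35.5 per merged exon length. CCNE1, amplified in part of gastric cancers, was at 2.97 FPKM.

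In DNA repair, 24 of 28 were members. The end-joining genes XRCC6 and XRCC5 were at 142 and 44.9 FPKM and PRKDC at 31.4. BRCA1 and BRCA2 were below the limit at 0.682 and 0.623 FPKM, but BRCA1 was above it at 1.80 per merged exon length. Of the apoptosis genes, 22 of 33 were members: the survivin gene BIRC5 at 43.98 FPKM, the effector BAK1 at 15.9, the survival protein MCL1 at 15.4 and the death receptor TNFRSF10B at 13.2. BCL2 was at 0.488 FPKM, and BCL2L1 at 1.07 with 42.97% of its exon bases shared.

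Chromatin regulators had 35 of 39 members. CHD4 of the NuRD complex stood at 43.6 FPKM, HDAC1 at 29.9, the remodeller subunits SMARCB1 and SMARCA4 at 28.5 and 28.3 (7.46 and 27.6 per merged exon length), and the maintenance methyltransferase DNMT1 at 26.2. ARID1A, often mutated in gastric cancer, was at 5.22 FPKM. Below the limit were DNMT3A at 0.774 (1.10 per merged exon length), TET2 at 0.351 and TET1 at 0.0861.

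At several steps of glycolysis 1 gene of a family was much higher than its relatives. The list of uptake and glycolysis genes had 28 of 44 members, 8 of them above 100 FPKM. The transporter SLC2A1 stood at 46.6 FPKM and SLC2A3 at 6.92. Hexokinase HK1 was at 26.1 FPKM and HK2 at 15.2, with HK3 at 0 counts. Phosphofructokinase PFKP was at 68.5 FPKM, 7.10 times PFKL, and aldolase ALDOA at 135, 14.5 times ALDOC (34.5 per merged exon length). ENO1 was 766 times ENO2 (349 per merged exon length), and the pyruvate kinase gene PKM was at 458 FPKM while its relative PKLR had 0 counts. For lactate dehydrogenase the order depended on length: LDHB exceeded LDHA 1.45-fold as deposited, and was 0.821 times LDHA per merged exon length. The lactate transporters SLC16A1 and SLC16A3 also changed order, from a ratio of 1.06 to 0.944. The gluconeogenic FBP1 had 0 counts.

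Carbon enters the citric acid cycle through pyruvate dehydrogenase and pyruvate carboxylase. Of these genes, 32 of 34 were members, with a median of 10.3 FPKM. The succinate dehydrogenase subunits SDHB and SDHA stood at 60.03 and 48.4 FPKM, OGDH at 53.4, pyruvate carboxylase PC at 40.1 and PDHA1 at 12.7. The exceptions were the inhibitory kinases PDK1 and PDK4 at 0.484 and 0.601 FPKM. The pentose phosphate pathway, a source of NADPH and ribose, had 9 of 11, with TALDO1 at 83.03 FPKM, TKT at 80.03 and PGD at 70.4.

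Lipid synthesis was led by FASN, the fatty acid synthase, at 255 FPKM, the desaturase SCD at 224 and the citrate lyase ACLY at 124. Of the fatty acid list 20 of 28 were members, and of the cholesterol list 24 of 27. DHCR7 and FDFT1, enzymes of cholesterol synthesis, stood at 37.9 and 30.1 FPKM. The controlling factors SREBF2 and SREBF1 were at 37.2 and 24.9 FPKM.

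Of the amino acid and polyamine genes, 30 of 36 were members (83.3%, against 45.7% of protein-coding names), with a median of 19.1 FPKM. ODC1, the first enzyme of polyamine synthesis, stood at 156 FPKM, spermidine synthase SRM at 111 and the pyrimidine enzyme CAD at 101. The serine synthesis genes PHGDH and PSAT1 were at 84.6 and 60.5 FPKM, argininosuccinate synthase ASS1 at 91.5 and CPS1, a urea cycle enzyme of liver and gut, at 51.3. GLUL, which makes glutamine and is used by many cell types, was listed at 0 counts, and whether reads of the gene were lost in counting was not tested. Amino acid transporters had 17 of 28 members. SLC7A5, the large neutral amino acid carrier, stood at 765 FPKM and its heavy chain partner SLC3A2 at 57.03. The glutamine carriers SLC1A5 and SLC38A5 were both at 53.5 FPKM, and the cystine carrier SLC7A11 at 4.72.

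Redox and detoxification genes had 42 of 49 members. The ferritin light chain FTL stood at 507 FPKM, peroxiredoxin PRDX1 at 333, the ferritin heavy chain FTH1 at 269.9 (62.4% of exon bases shared), thioredoxin TXN at 178 and the lipid peroxide reductase GPX4 at 137. The oxidant-response factor NFE2L2 was at 6.06 FPKM, its inhibitor KEAP1 at 18.5, and its targets NQO1 and HMOX1 at 60.7 and 17.9. GSTM1 and ALDH1A1 were at 1 and 0 counts. Metallothioneins, which bind zinc and copper, had 4 of 12 members, with MT1E at 181 FPKM, MT2A at 37.4, MT1X at 8.17 and MT1G at 5.03. Drug transporters had 12 of 25. The nucleoside carrier SLC29A1 was at 38.6 FPKM, the efflux pumps ABCC1 and ABCC2 at 23.5 and 18.2, and ABCG2 at 6.16. ABCB1, which encodes P-glycoprotein, had 0 counts (3 counts would be 0.0162 FPKM).

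Antigen presentation genes had 24 of 36 members. HLA-E stood at 39.4 FPKM, HLA-C at 10.9 and HLA-B at 4.44, with the light chain B2M at 28.6. HLA genes vary between people and resemble each other, so reads may be lost or divided among them, which was not tested. The costimulatory ligand TNFSF9 was at 48.8 FPKM and the stress ligand MICA at 21.4. CD274, which encodes PD-L1, had 2 counts. Cytokines had 6 of 34 members: MIF at 156 FPKM with 61.9% of its exon bases shared, CCL2 at 8.74, IL18 at 5.89, HMGB1 at 5.24, TNFSF10 at 1.75 and CSF1 at 1.22. CXCL8 had 3 counts and CXCL1 had 0.

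Long non-coding RNAs were lower than the short ones. MALAT1 and NEAT1, which mark nuclear bodies, stood at 57.1 and 7.65 FPKM. CCAT1, a long RNA transcribed near MYC and named for colon cancer, was at 31.9 FPKM, the differentiation inhibitor DANCR at 13.6 and GAS5 at 9.83. H19 and HOTAIR were below the limit at 0.682 and 0.381 FPKM, H19 being at 3.53 per merged exon length, and UCA1 had 0 counts.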

How the data were processed

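RNA was measured in 1 library of AGS cells given DMSO. TRIzol extraction, ribosomal RNA depletion and an Illumina library came next, per the labels' protocols. The build was hg38, and StringTie 1.2.3 and HISAT2 2.0.4 are named without a role, per the submitters' processing notes. How counts were made, with or without strand, and from which annotation release is not given in the sources used here. Raw counts and FPKM for 50868 identifiers are values that the authors deposited. The highest identifier of each name was kept, which left out 373, and 1 FPKM was the limit. Deposited FPKM values were also recomputed from the counts with merged exon lengths of GENCODE 29, an alternative added after seeing the data. Exact Poisson intervals (95%) on the counts were computed with SciPy 1.17.1, and tables with pandas 2.3.3. Reads carry no molecular identifiers, so intervals and the limit of 3 counts (0.160 CPM) cover counting error only. Scripts were tested on simulated data. No comparison of treatments was made and, with 1 library per group, no test.

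The markers and 58 gene lists were chosen with earlier results of these data known. Genes named are the 6 markers, the 25 protein-coding genes with the highest FPKM, the highest members of each list by FPKM (at most 6), the first 4 members of each list as written, and genes beside the limit. Other genes named, mainly well-known members with low values, were chosen after their values were seen. Not every gene that the rule gives is described, and some are not reported here.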

Additional observations from a re-analysis of the deposited data

How the results depend on the processing

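The count of genes at the limit depends on the limit, and many of the counted genes overlap another. Of 10631 gene names at 1 FPKM, 4976 reached 5 FPKM and 3677 overlapped no other listed gene. Over all 50495 names, 16080 reached 1 TPM. Of 8991 protein-coding names, 4544 reached 5 FPKM and 3311 overlapped no other listed gene. Without mitochondrially encoded genes the 100 genes with most counts held 21.9% of counts, and among protein-coding genes only they held 21.3%, against 22.4%. Limits of 0.5 and 2 FPKM, summed identifiers, a minimum of 10 counts and merged exon lengths moved the gene counts by less than 1.5 times. Of 58 gene lists, the number of members moved by over 1.5 times in 28 at 5 FPKM, in 5 at 2 FPKM and in 3 at 0.5 FPKM. It moved by that much in 2 lists with merged exon lengths, and in 46 when only genes without overlap were counted. Counting only genes without overlap leaves genes out, so those numbers can only fall or stay. They do not show whether overlap changed the level of a gene. At 2 FPKM the claudins kept 0 of 3 members, and the counts were 4 against 10 for Wnt target genes, 7 against 12 for HOX genes, 14 against 22 for the apoptosis list and 1 against 3 for the neural list. At 0.5 FPKM the gastric, leukocyte and endothelial lists each had 1 gene against 0. Among 377 named genes, merged exon lengths raised 299 levels and lowered 13, and rescaling to TPM multiplied every level by 3.69. No paired analysis was possible because each group has 1 library and the labels give no replicate numbers. Low counts limit the precision of 111 members with fewer than 10 counts, and the lower counting bound of 826 members lies below 1 FPKM.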

Other observations

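Some processed pseudogenes were listed above the genes they copy. RPSAP58 stood at 1269 FPKM with 21150 counts, and its parent RPSA, which encodes a ribosomal protein and laminin receptor, at 263 with 32887. RPL7AP6 was at 948 FPKM and RPL7A at 286. RPS28P7 was at 608 FPKM and RPS28 at 129. In each of these 3 pairs, chosen after their values were seen, the pseudogene had fewer counts than the parent, and its single exon is shorter than the length used for the parent. All pseudogene types together took 0.980% of the counts.

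The chains of type I collagen were listed far apart, with COL1A1 at 11.3 FPKM and 1 count for COL1A2. The type V chains COL5A1 and COL5A2 were at 44.5 and 25.6 FPKM. Along the chromosomes, the share of protein-coding names at 1 FPKM or more ran from 32.6% on chromosome 4 to 55.2% on chromosome 16.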
